A study of Mus musculus with 12 samples.

Results

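The 10 genes followed here mark microglia, the resident macrophages of the brain, and were measured on 12 Affymetrix Mouse Gene 1.0 ST arrays: the complement genes C1qa, C1qb and C1qc, the receptor genes Csf1r and Trem2, the receptor adaptor Tyrobp, the lysosomal genes Ctss, Lyz2 and Laptm5, and the calcium-binding protein Aif1. They were chosen by symbol, and each of the 10 matched 1 probe set of a single gene, among 19938 genes in all. The series asks how astrocytes are turned into induced pluripotent stem cells (iPSCs). The first group was sorted at day 6 after retroviruses carrying Oct4, Klf4, Sox2 and c-Myc were added to astrocytes, keeping cells positive for the Sox1-GFP reporter (a green fluorescent protein that marks neural progenitors), in medium with 15% serum and 1000 U/ml leukaemia inhibitory factor (day 6 cells, 3 arrays). Neural stem cells were derived from the embryonic telencephalon of Sox1-GFP mice at day 12.5 to 14.5 and grew without serum in 20 ng/ml each of basic FGF and EGF (2 arrays). The iPSCs came from Sox1-GFP astrocytes (astrocyte iPSCs, 2 arrays) or from mouse embryonic fibroblasts, MEFs, of the line iPS-MEF-Ng-20D-17 with a Nanog-GFP-IRES-Puro reporter (MEF iPSCs, 2 arrays), and both grew on MEF feeder cells with 15% serum or serum replacement and 1500 U/ml of the factor. The starting astrocytes (3 arrays) were cultured from the cortex of Sox1-GFP mice at postnatal day 3 in 10% serum and sorted as GFP-negative. The starting astrocytes and the cells made from them carry the Sox1-GFP reporter (Sox1+/-), while the MEF iPSCs are 1 clone with another reporter. Day 6 cells were kept as GFP-positive and astrocytes as GFP-negative, so in their differences the sort cannot be told apart from the reprogramming. Neither sort selects on a surface marker of microglia. Since separate animals or cultures per array are not stated in the labels, the spread behind the p-values may be partly technical.

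Microglia arise from the yolk sac and settle in the brain before astrocytes form. They depend on the receptor tyrosine kinase encoded by Csf1r, which binds the growth factors Csf1 and Il34, and on the transcription factor PU.1 (Spi1). They make the 3 chains of C1q, the recognition molecule of the classical complement pathway, and they sense lipids through Trem2, which signals through the adaptor Tyrobp and the kinase Syk. Astrocyte cultures from newborn rodents often hold microglia on top of or within the astrocyte layer. Lyz2 and Laptm5 are less specific: Lyz2, the M lysozyme, is also made by neutrophils and other macrophages, and Laptm5 is a lysosomal membrane protein of blood cells in general.

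No upstream sequence was used for C1qa, Csf1r or Tyrobp. The other 7 of the 10 genes were searched in their upstream sequences from the RefSeq table. The 250 bases before the transcription start of the 4 among them that were lower in day 6 cells than in astrocytes past both the test and a non-overlap of all arrays (Lyz2, Ctss, C1qb, C1qc) and of Laptm5, which went the other way, are printed so that both patterns can be set beside the sequence in front of each gene (RefSeq, GRCm38.p6). Capitals mark GAGGAA or its reverse complement TTCCTC, the core of the PU.1 motif.
Lyz2, chr10:117282273-117282522, minus strand: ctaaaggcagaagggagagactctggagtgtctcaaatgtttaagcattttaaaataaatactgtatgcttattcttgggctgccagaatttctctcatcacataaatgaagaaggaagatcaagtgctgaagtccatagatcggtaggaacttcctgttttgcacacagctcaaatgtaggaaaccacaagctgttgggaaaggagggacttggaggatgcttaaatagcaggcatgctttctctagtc
Ctss, chr3:95526536-95526785, plus strand: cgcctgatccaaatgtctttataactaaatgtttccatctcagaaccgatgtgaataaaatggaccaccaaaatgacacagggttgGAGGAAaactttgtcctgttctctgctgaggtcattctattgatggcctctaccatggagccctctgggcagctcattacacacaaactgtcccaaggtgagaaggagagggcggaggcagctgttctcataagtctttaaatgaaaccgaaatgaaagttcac
C1qb, chr4:136886201-136886450, minus strand: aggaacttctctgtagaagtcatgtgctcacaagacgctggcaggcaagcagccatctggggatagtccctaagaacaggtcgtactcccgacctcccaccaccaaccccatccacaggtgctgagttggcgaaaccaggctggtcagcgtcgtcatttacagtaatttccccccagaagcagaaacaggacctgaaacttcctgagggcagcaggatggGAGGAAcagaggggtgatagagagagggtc
C1qc, chr4:136892915-136893164, minus strand: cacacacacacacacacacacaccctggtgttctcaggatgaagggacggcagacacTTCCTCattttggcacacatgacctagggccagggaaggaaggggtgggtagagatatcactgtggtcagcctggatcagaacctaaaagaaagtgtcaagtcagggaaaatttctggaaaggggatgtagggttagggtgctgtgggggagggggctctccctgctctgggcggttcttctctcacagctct
Laptm5, chr4:130913066-130913315, plus strand: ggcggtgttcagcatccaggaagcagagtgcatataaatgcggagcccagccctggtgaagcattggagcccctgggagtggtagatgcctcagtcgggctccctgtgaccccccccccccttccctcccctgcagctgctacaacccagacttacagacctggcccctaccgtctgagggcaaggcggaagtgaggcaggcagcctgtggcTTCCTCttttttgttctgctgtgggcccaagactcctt
On either strand, GAGGAA stood once in each of the upstream sequences of Ctss, C1qb, C1qc and Laptm5 and was not found in that of Lyz2. It lay 30 to 25 bases before the start of C1qb and 38 to 33 bases before that of Laptm5. The longer form GAGGAAGT, which contains GAGGAA, was present in C1qc only, 195 to 188 bases before the start. The sequences of Aif1 and Trem2, not printed, also held GAGGAA. Over the 32851 upstream sequences of this length in the table, 23.3% held GAGGAA and 2.44% held GAGGAAGT. The AP-1-like pattern TGANTCA, where N is any base, was found in Trem2 alone among the 7, as TGAATCA, against 6.75% of all. The match is a feature of the letters and is found in the gene that went the other way as well. C1qb, C1qc and C1qa are neighbours on chromosome 4 in that order, and Lyz2 lies next to its paralog Lyz1 on chromosome 10.

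Values are log2 of the deposited intensities, and differences between groups are limma log2 fold changes with their standard errors (SE). Calls required both a Benjamini-Hochberg adjusted p under 0.05 over all genes and a log2 fold change of 1 or more in size, the fold limit, and the count without the fold limit is given beside it because most of the 10 genes were dim. As a guide to dimness, the 95th percentile of 1015 olfactory receptor genes, which these cells are not known to use, lay between 5.82 and 6.13 on the 12 arrays. Probe sets differ in their own background, so this level is rough. Within a group, whole-array correlations were 0.992 to 0.996. The labelled astrocytes carried their defining genes: Gfap stood at 12.22, 12.10 and 12.65 there and between 6.05 and 6.41 on the other 9 arrays, and 9 of 12 astrocyte markers were higher on all 3 astrocyte arrays than on any other array.

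Of the 10 genes, 6 (C1qa, C1qb, C1qc, Csf1r, Ctss and Lyz2) had all 3 astrocyte arrays above all 9 other arrays, a pattern shown by 16.6% of all genes. In day 6 cells, Lyz2 and Ctss were called lower than in astrocytes, 2 of 10 genes against a background of 10.1% of all genes called lower, and Laptm5 was called higher, 1 of 10 against 6.75%. Without the fold limit, 7 of 10 were lower against 25.1% of all genes, and 1 was higher against 23.8%. The median log2 fold change of the 10 genes was -0.54, beside 0.04 over all genes. In bulk samples like these, fewer cells of a type and less RNA per cell cannot be told apart.

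**Figure D1:**
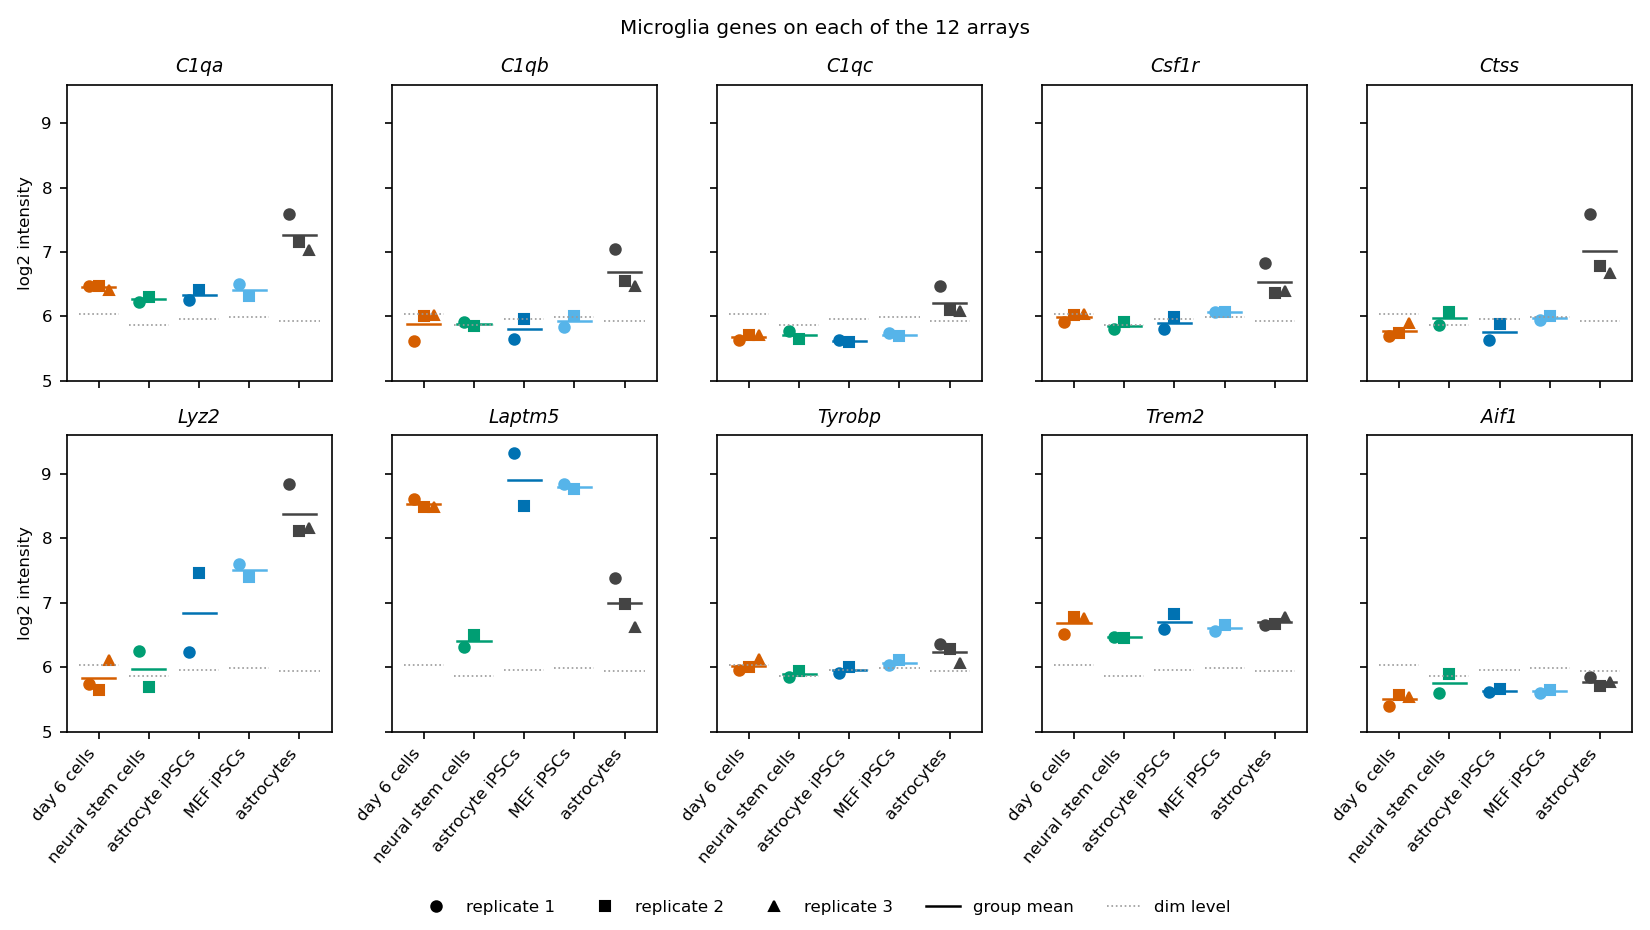
Log2 intensity (vertical axis) of the 10 microglia genes on each array; circles, squares and triangles are replicates 1, 2 and 3, solid lines are group means and dotted lines the mean dim level of the group's arrays (95th percentile of olfactory receptor genes). C1qa, C1qb, C1qc, Csf1r, Ctss and Lyz2 are highest on the 3 astrocyte arrays, Laptm5 is highest in day 6 cells and both iPSC groups, and Tyrobp, Trem2 and Aif1 are nearly level.

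The C1q chains form 1 protein, and their probe sets gave parallel profiles. C1qa had log2 intensities of 6.47, 6.47 and 6.40 in day 6 cells, 6.23 and 6.30 in neural stem cells, 6.25 and 6.41 in astrocyte iPSCs, 6.50 and 6.32 in MEF iPSCs, and 7.59, 7.16 and 7.03 in astrocytes. The astrocyte arrays were all above the rest, and the other 9 arrays lay between 6.23 and 6.50. C1qb had 5.62, 6.01 and 6.03 in day 6 cells, 5.91 and 5.85 in neural stem cells, 5.65 and 5.97 in astrocyte iPSCs, 5.83 and 6.01 in MEF iPSCs, and 7.04, 6.55 and 6.48 in astrocytes. C1qc had 5.64, 5.71 and 5.70 in day 6 cells, 5.78 and 5.65 in neural stem cells, 5.63 and 5.61 in astrocyte iPSCs, 5.74 and 5.69 in MEF iPSCs, and 6.47, 6.10 and 6.08 in astrocytes. For C1qb and C1qc the signal was thus above the dim level on all 3 astrocyte arrays, and on 1 and 0 of the 9 other arrays. Against astrocytes, the day 6 cells were at -0.81 ± 0.12 for C1qa, -0.80 ± 0.16 for C1qb and -0.53 ± 0.10 for C1qc on the log2 scale (limma, adjusted p = 0.000127, 0.00097 and 0.000517), past the test but short of the fold limit. Neural stem cells differed from astrocytes by similar amounts, -0.996 ± 0.14, -0.81 ± 0.17 and -0.50 ± 0.11, and C1qa missed the fold limit narrowly.

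Csf1r, the receptor on which microglia depend, was also highest in astrocytes, at a low level. It had 5.91, 6.03 and 6.04 in day 6 cells, 5.80 and 5.92 in neural stem cells, 5.80 and 6.00 in astrocyte iPSCs, 6.07 and 6.06 in MEF iPSCs, and 6.83, 6.36 and 6.40 in astrocytes. No other array reached the lowest astrocyte array. Relative to astrocytes its log2 fold change was -0.54 ± 0.11 in day 6 cells (adjusted p = 0.00164), -0.67 ± 0.13 in neural stem cells, -0.63 ± 0.13 in astrocyte iPSCs and -0.47 ± 0.13 in MEF iPSCs. These 4 comparisons share the astrocyte arrays.

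Trem2, a receptor for lipids, was nearly level. It had 6.52, 6.79 and 6.77 in day 6 cells, 6.47 and 6.46 in neural stem cells, 6.59 and 6.83 in astrocyte iPSCs, 6.57 and 6.66 in MEF iPSCs, and 6.66, 6.67 and 6.79 in astrocytes. Its group means spanned 0.24, and day 6 cells and astrocytes overlapped (-0.01 ± 0.09, adjusted p = 0.931). Tyrobp, its adaptor, had 5.95, 6.01 and 6.12 in day 6 cells, 5.86 and 5.94 in neural stem cells, 5.91 and 6.00 in astrocyte iPSCs, 6.03 and 6.11 in MEF iPSCs, and 6.36, 6.28 and 6.07 in astrocytes. Astrocyte replicates 1 and 2 were above every other array and replicate 3 lay among them. The log2 fold change of Tyrobp from astrocytes was -0.21 ± 0.08 in day 6 cells (adjusted p = 0.0502) and -0.34 ± 0.09 in neural stem cells (adjusted p = 0.00886). Aif1, which encodes the microglial stain Iba1, stayed near or under the dim level, with 5.40, 5.56 and 5.54 in day 6 cells, 5.60 and 5.90 in neural stem cells, 5.62 and 5.66 in astrocyte iPSCs, 5.60 and 5.65 in MEF iPSCs, and 5.84, 5.71 and 5.77 in astrocytes. Its log2 fold change between day 6 cells and astrocytes was -0.28 ± 0.08 (adjusted p = 0.0148), and neural stem cells and astrocytes overlapped.

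Ctss, cathepsin S, a cysteine protease of antigen-presenting cells, was among the 2 genes called lower in day 6 cells. It had 5.69, 5.74 and 5.90 in day 6 cells, 5.87 and 6.07 in neural stem cells, 5.63 and 5.89 in astrocyte iPSCs, 5.94 and 6.00 in MEF iPSCs, and 7.58, 6.78 and 6.67 in astrocytes. The astrocyte arrays stood apart from all others, and replicate 1 stood apart from the other 2 astrocyte arrays. Ctss fell in all 4 groups against astrocytes, with log2 fold changes of -1.23 ± 0.19 in day 6 cells (adjusted p = 0.000189), -1.04 ± 0.22 in neural stem cells, -1.25 ± 0.22 in astrocyte iPSCs and -1.04 ± 0.22 in MEF iPSCs. The size of the change rested on astrocytes replicate 1: without it, the log2 fold changes were -0.95, -0.76, -0.97 and -0.76 in the same order, short of the fold limit in all 4, with adjusted p-values between 1.87e-05 and 0.000235.

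Lyz2, the M lysozyme, had group means that spanned 2.54, beside 2.50 for Laptm5 and 1.25 for Ctss. Lyz2 had 5.74, 5.65 and 6.11 in day 6 cells, 6.26 and 5.70 in neural stem cells, 6.24 and 7.46 in astrocyte iPSCs, 7.61 and 7.41 in MEF iPSCs, and 8.84, 8.11 and 8.16 in astrocytes. From low to high, the group means were 5.84 ± 0.24 in day 6 cells (SD, n = 3), 5.98 ± 0.40 in neural stem cells (n = 2), 6.85 ± 0.86 in astrocyte iPSCs (n = 2), 7.51 ± 0.14 in MEF iPSCs (n = 2) and 8.37 ± 0.41 in astrocytes (n = 3). Neighbours in this order overlapped up to the MEF iPSCs, and astrocytes did not overlap with any group. Against astrocytes, Lyz2 fell in 3 groups, with log2 fold changes of -2.54 ± 0.29 in day 6 cells (adjusted p = 1.54e-05), -2.40 ± 0.33 in neural stem cells (adjusted p = 7.8e-05) and -1.53 ± 0.33 in astrocyte iPSCs (adjusted p = 0.00186). In MEF iPSCs its log2 fold change was -0.87 ± 0.33 (adjusted p = 0.0466), and it was not called. Without astrocyte iPSC replicate 1, the log2 fold change of astrocyte iPSCs was -0.92 and the call was lost.

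In the iPSCs the Lyz2 signal differed between arrays. In astrocyte iPSCs it was 1.01 ± 0.33 higher than in day 6 cells (adjusted p = 0.0373), the single gene of 10 called in that comparison (background 3.29% of all genes higher, and 2.82% lower where 0 of the 10 were; without the fold limit 15.5% and 14.0%). That call was lost when astrocyte iPSC replicate 2, the higher array, was left out (0.40, adjusted p = 0.42), a drop in the fold itself. It was also lost without day 6 replicate 1 or 2 (0.97 and 0.92, adjusted p = 0.0914 and 0.109) and without either MEF iPSC array (1.01, adjusted p = 0.0519 each), where the fold stayed about as large. Astrocyte iPSC replicate 2 also had more fibroblast signal than replicate 1: the summed intensity of 7 fibroblast genes was 3048 and 5451 on astrocyte iPSC replicates 1 and 2, 2463 and 2402 in MEF iPSCs, 670 to 805 in day 6 cells, and 6212 to 7332 in astrocytes. The sums and Lyz2 did not keep the same order across groups. MEF iPSCs had lower sums than astrocyte iPSC replicate 1, and Lyz2 was at 7.61 and 7.41 against 6.24. Decorin (Dcn), a fibroblast matrix protein, had 10.48 and 11.26 in astrocyte iPSCs and 6.54, 6.31 and 6.37 in day 6 cells. Dcn was 3.48 ± 0.43 higher in astrocyte iPSCs than in astrocytes, where Lyz2 was highest. The iPSCs grew on MEF feeders, and the part of feeder cells in the Lyz2 signal was not tested. None of 10 neutrophil and granulocyte genes was called in any of the 6 comparisons (limma, 0 at the call rule, at most 1 without the fold limit), and 5 of them stayed at or under the dim level on every array. The paralog Lyz1, a near-identical copy for which cross-hybridisation was not tested, had 6.08, 6.24 and 5.92 in day 6 cells, against 6.31, 6.33 and 6.50 in astrocytes, a log2 fold change of -0.30 ± 0.12 (adjusted p = 0.0477).

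Laptm5 had another profile. It had 8.61, 8.49 and 8.49 in day 6 cells, 6.32 and 6.50 in neural stem cells, 9.32 and 8.50 in astrocyte iPSCs, 8.84 and 8.77 in MEF iPSCs, and 7.38, 6.98 and 6.62 in astrocytes. Day 6 cells and both iPSC groups formed a high set that did not overlap with astrocytes, and neural stem cells were lowest. Laptm5 rose by 1.54 ± 0.21 in day 6 cells (adjusted p = 5.22e-05), by 1.92 ± 0.23 in astrocyte iPSCs (adjusted p = 1.98e-05) and by 1.81 ± 0.23 in MEF iPSCs (adjusted p = 3.28e-05), against astrocytes. It was also 2.12 ± 0.23 higher in day 6 cells than in neural stem cells (adjusted p = 2.18e-05), the single gene of 10 called there, against 2.94% of all genes called higher. Astrocyte iPSCs and day 6 cells overlapped (0.38 ± 0.23, adjusted p = 0.283). Neural stem cells differed from astrocytes by -0.58 ± 0.23, short of the test (adjusted p = 0.0594). Among other genes of blood cells, 0 of 18 myeloid genes were called higher in day 6 cells than in astrocytes, against 6.75% of all genes. Without the fold limit 1 of the 18, Coro1a, was higher, against 23.8%. Of 6 lymphocyte genes 0 were called higher (1 without the fold limit), against the same shares. The structural relatives of Laptm5, the lysosomal membrane proteins Laptm4a and Laptm4b, fell in day 6 cells, with log2 fold changes of -1.78 ± 0.08 and -1.36 ± 0.07 (adjusted p = 4.74e-09 and 2.87e-08).

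In the comparisons that were not day 6 against astrocytes, the counts were as follows. In neural stem cells Ctss and Lyz2 were called lower than in astrocytes, 2 of 10 against 8.10% of all genes, and without the fold limit 7 of 10 against 23.3% (0 of 10 were higher, against 22.6%). In astrocyte iPSCs the same 2 genes were called lower (background 11.4%) and Laptm5 higher (background 9.44%). In MEF iPSCs Ctss was called lower (background 11.4%) and Laptm5 higher (background 8.71%). Without the fold limit, 7 and 6 of 10 were lower in the iPSC groups, against 26.2% and 25.9% of all genes, and Laptm5 was the 1 higher gene in each, against 24.8% and 24.3%. Between day 6 cells and neural stem cells only Laptm5 was called, and without the fold limit Aif1 was lower (-0.25 ± 0.09, adjusted p = 0.0493), 1 of 10 against 18.4% of all genes, with 20.0% higher.

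**Figure D2:**
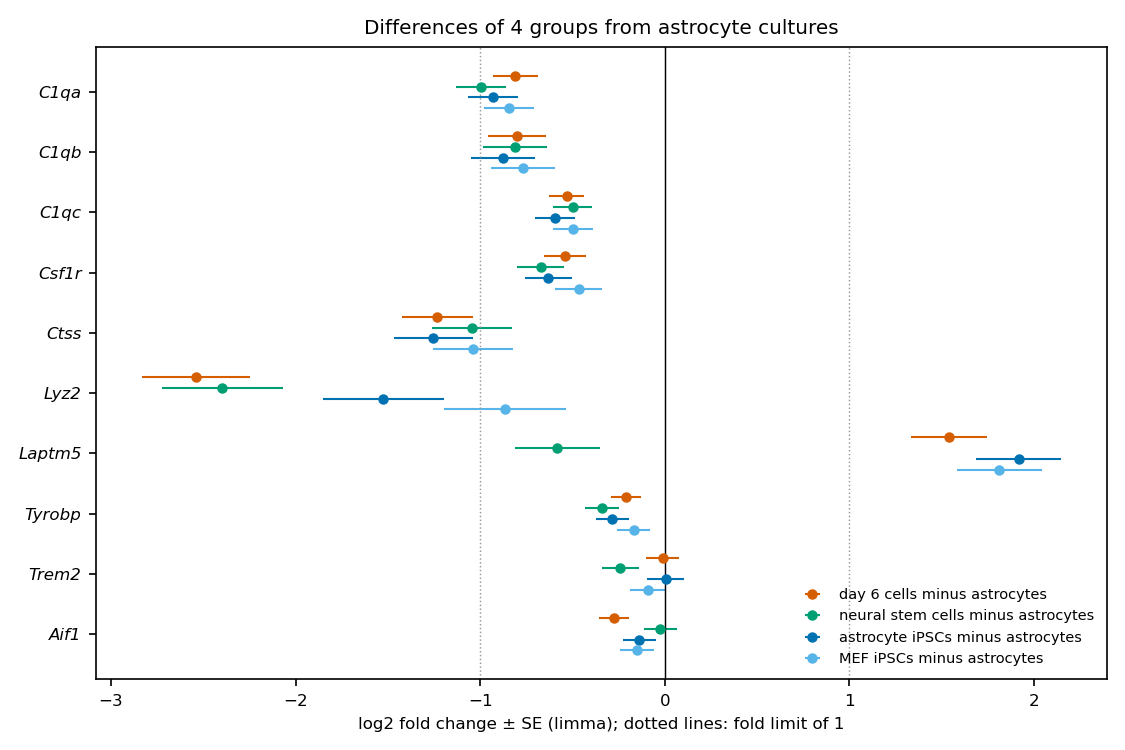
Log2 fold change (horizontal axis) with its limma standard error for the 10 genes in day 6 cells, neural stem cells, astrocyte iPSCs and MEF iPSCs, each minus astrocytes; dotted lines mark the fold limit of 1. Ctss lies beyond -1 in all 4, the 3 C1q genes and Csf1r lie between -0.996 and -0.47, Lyz2 is nearer to 0 in the iPSC groups than in day 6 and neural stem cells, and Laptm5 is positive except in neural stem cells.

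The astrocyte arrays were not alike in these genes. Replicate 1 was the highest of the 3 astrocyte arrays for 9 of the 10 genes, against 34.6% of all genes, and Trem2 was the exception. It exceeded the mean of replicates 2 and 3 by 0.86 for Ctss, 0.71 for Lyz2, 0.58 for Laptm5, 0.53 for C1qb, 0.49 for C1qa, 0.45 for Csf1r and 0.38 for C1qc. The median over the 10 genes was 0.47, beside -0.00 over all genes, where the 5th and 95th percentiles were -0.26 and 0.31. The same difference for day 6 replicate 1 lay between -0.40 for C1qb and 0.12 for Laptm5, and it was above 0 for 2 of the 10 genes, Laptm5 and C1qa. In the other lists of brain macrophages, astrocytes replicate 1 was the highest for 7 of 11 homeostatic microglia genes, with a median excess of 0.08, and for 2 of 8 border macrophage genes, with a median of -0.06. The summed intensity of all 10 genes was 941 to 981 in day 6 cells, 656 and 666 in neural stem cells, 1202 and 1084 in astrocyte iPSCs, 1192 and 1153 in MEF iPSCs, and 1584, 1131 and 1092 in astrocytes. By this sum, astrocyte replicates 2 and 3 lay among the iPSC arrays. Leaving out Lyz2 and Laptm5, a choice made after their values were seen, the summed intensity of the other 8 genes was 495 to 553 in day 6 cells, 499 to 523 in neural stem cells, 487 to 547 in astrocyte iPSCs, 539 to 547 in MEF iPSCs, and 958, 729 and 707 in astrocytes. By the sum of 8, the astrocyte arrays lay above all others. This order was largely set by the choice, since C1qa, C1qb, C1qc, Csf1r and Ctss each had it singly and Laptm5 was left out.

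**Figure D3:**
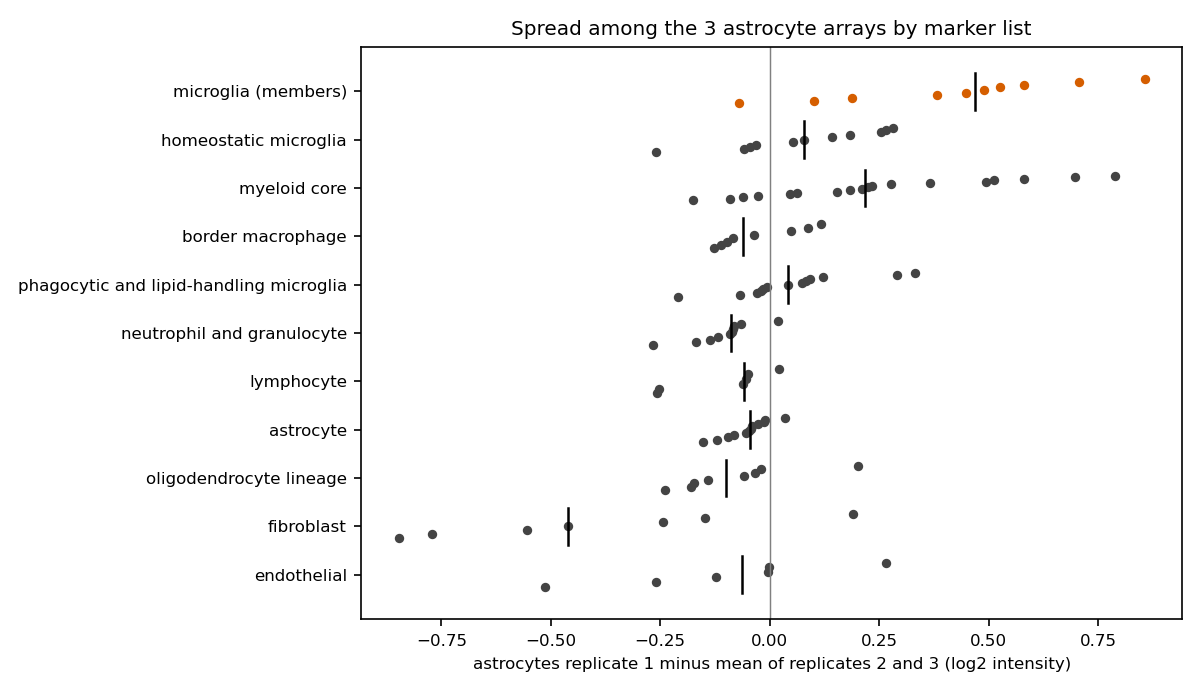
Astrocytes replicate 1 minus the mean of astrocyte replicates 2 and 3 (log2 intensity, horizontal axis) for each gene of 11 marker lists; points are genes and the vertical bars medians. The 10 microglia genes have a median of 0.47 and the myeloid list 0.22, while homeostatic microglia genes are at 0.08, border macrophage genes at -0.06, the astrocyte list at -0.04 and the fibroblast list at -0.46.

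In day 6 cells against astrocytes, the counts in the wider myeloid list were near those over all genes. Of 18 measured myeloid genes, 0 were called lower in day 6 cells than in astrocytes, against 10.1% of all genes. Without the fold limit 6 of 18 were lower, against 25.1%, with a median log2 fold change of -0.18. Neural stem cells differed more from astrocytes: 12 of 18 were lower without the fold limit, against 23.3% of all genes, with a median of -0.34. Of these, 1, Runx1, was called lower, against 8.10%. In astrocyte iPSCs and MEF iPSCs 5 and 3 of 18 were lower without the fold limit, against 26.2% and 25.9%. All astrocyte arrays were above all others for 4 of the 18, against 16.6% of all genes. Ly86, an accessory of Toll-like receptors, had 5.23, 5.26 and 5.32 in day 6 cells and 6.62, 6.16 and 5.69 in astrocytes (-0.89 ± 0.17, adjusted p = 0.00101). Lcp1, an actin bundler of white blood cells, had 5.88, 6.02 and 5.87 in day 6 cells, against 6.91, 6.39 and 6.42 in astrocytes (-0.65 ± 0.14, adjusted p = 0.00170). Fcer1g, an adaptor of Fc receptors, had 5.69, 5.89 and 5.82 in day 6 cells, against 6.95, 6.25 and 6.07 in astrocytes. Cd14, a receptor for bacterial lipopolysaccharide, was at -0.61 ± 0.08 (adjusted p = 5.25e-05). Replicate 1 was the highest astrocyte array for 13 of the 18, more than the 34.6% of all genes, with a median excess of 0.22.

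Several defining genes of myeloid cells and microglia gave no such signal. Ptprc, the pan-leukocyte antigen CD45, had 5.62, 5.56 and 5.72 in astrocytes and stayed at or under the dim level on all 12 arrays, as did P2ry12, P2ry13 and Gpr34, receptors of resting microglia. Fcrls also stayed at or under that level, and yet its astrocyte arrays were above all others, at 5.11, 5.19 and 5.16 in day 6 cells, against 5.79, 5.55 and 5.50 in astrocytes (-0.45 ± 0.07, adjusted p = 0.000282). Cx3cr1, the fractalkine receptor of microglia, had 5.99, 6.34 and 6.43 in day 6 cells, against 6.80, 6.55 and 6.76 in astrocytes (-0.45 ± 0.11, adjusted p = 0.00567). Of 11 measured homeostatic microglia genes, 1 was called lower in day 6 cells, against 10.1% of all genes, and 4 were lower without the fold limit, against 25.1%. The called gene was Olfml3, a secreted matrix protein (-1.18 ± 0.18, adjusted p = 0.000184), and it was not highest in astrocytes, since neural stem cells had 9.02 and 8.52. Sall1, a transcription factor of microglia that other cell types use too, had 8.49, 8.54 and 8.47 in day 6 cells, 9.87 and 9.67 in astrocyte iPSCs, and 8.85, 8.93 and 8.90 in astrocytes. In the border macrophage list 5 of 8 genes stayed at or under the dim level on every array, Mrc1, Cd163, Lyve1, Pf4 and Ms4a7. In day 6 cells 0 of the 8 were called lower than in astrocytes, against 10.1% of all genes. Without the fold limit 1 of 8, Cbr2, was lower (-0.58 ± 0.08, adjusted p = 5.47e-05), against 25.1%. The astrocyte arrays of Cbr2 were all above the other arrays. Whether the myeloid signal came from microglia within the cultures or from the astrocytes themselves was not tested.

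Of 13 genes that signal with the Csf1r and Trem2 receptors, 1 was called higher and 1 lower in day 6 cells, against 6.75% and 10.1% of all genes, with a median of -0.13. Csf1, the ligand of the Csf1r receptor, had 7.09, 7.07 and 6.83 in day 6 cells, 7.95 and 7.57 in neural stem cells, 7.72 and 8.49 in astrocyte iPSCs, 7.63 and 7.60 in MEF iPSCs, and 11.97, 12.02 and 11.76 in astrocytes. It fell by 4.92 ± 0.17 in day 6 cells (adjusted p = 9.61e-10), and its SD over the astrocyte arrays was 0.14. Il34, the second ligand, was also highest on the 3 astrocyte arrays, with log2 fold changes of -0.25 ± 0.08 in day 6 cells (adjusted p = 0.0242), -0.52 ± 0.09 in neural stem cells (adjusted p = 0.000574), -0.44 ± 0.09 in astrocyte iPSCs and -0.43 ± 0.09 in MEF iPSCs, all short of the fold limit. Downstream of Trem2 and Tyrobp, Syk rose by 1.38 ± 0.10 in day 6 cells, with 7.45, 7.51 and 7.46 there and 6.08, 6.07 and 6.11 in astrocytes. Plcg2, a phospholipase, and Inpp5d, the phosphatase SHIP1, were both low in day 6 cells and in astrocytes and higher in astrocyte iPSCs than in astrocytes by 2.05 ± 0.13 and 2.98 ± 0.11. Adam10, a protease that sheds Trem2, fell by 1.81 ± 0.07 in astrocyte iPSCs and was at -0.92 ± 0.06 in day 6 cells.

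**Figure D4:**
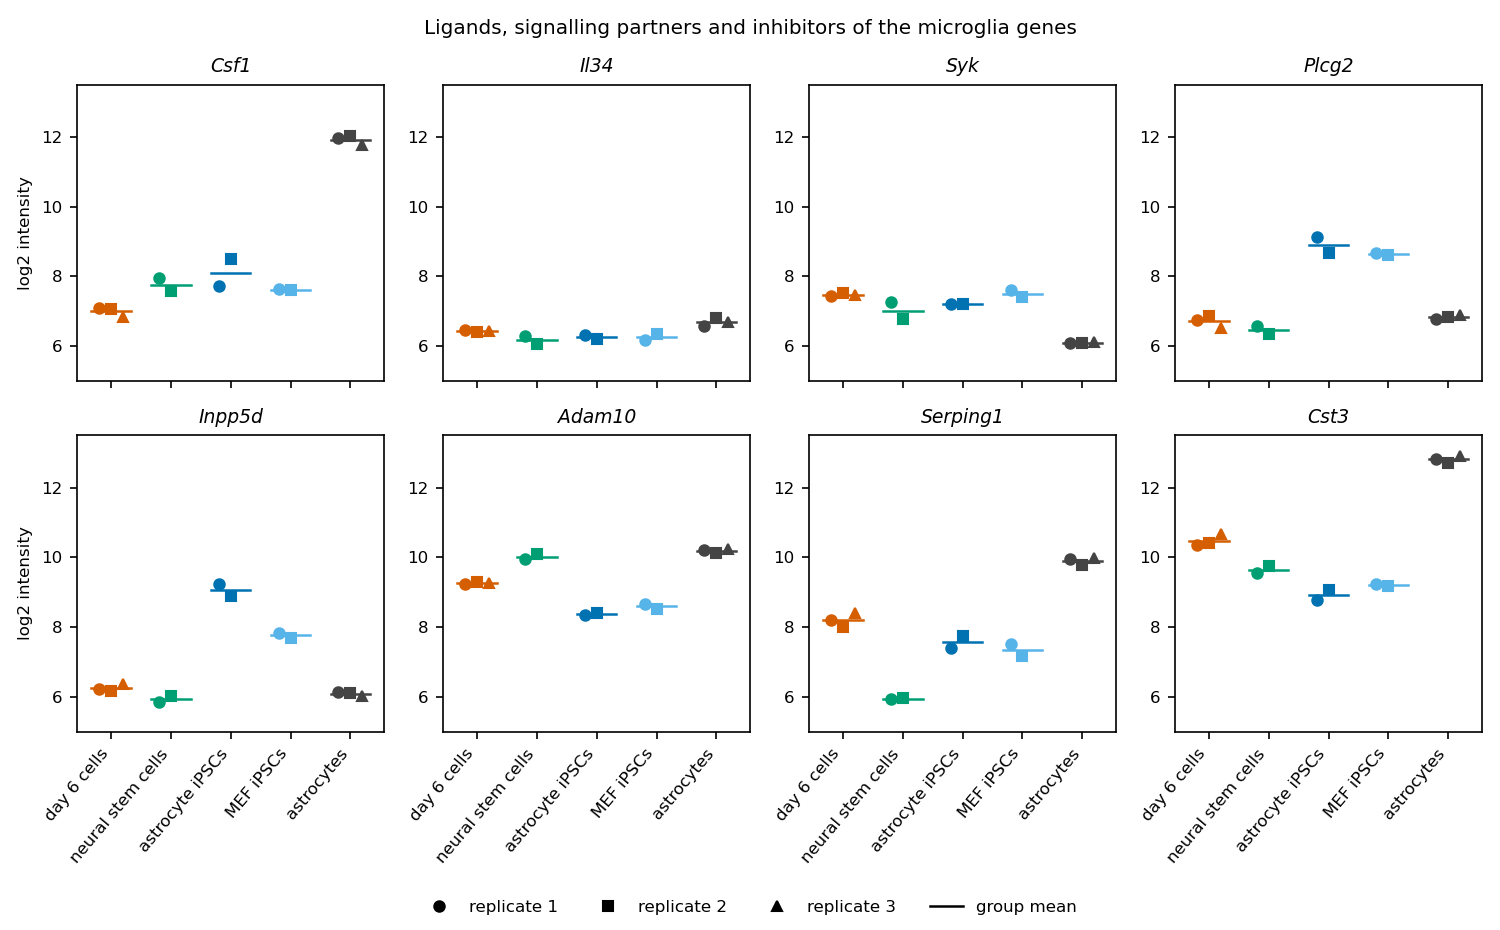
Log2 intensity (vertical axis) of 8 genes that act with the microglia genes, on each array; symbols are replicates and lines group means. Csf1, Serping1 and Cst3 are highest on all 3 astrocyte arrays, Syk is lowest there, and Plcg2 and Inpp5d are high in the 2 iPSC groups.

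Complement genes that act next to C1q were in part lower as well. Of 11 measured, 4 were called lower and 1 higher in day 6 cells, against 10.1% and 6.75% of all genes (median -0.64). The proteases that C1q activates, C1ra and C1s1, fell (-1.46 ± 0.09 and -1.53 ± 0.14), as did their inhibitor Serping1 (-1.71 ± 0.12) and their substrate C4b (-1.38 ± 0.22). Serping1 averaged 8.20 ± 0.20 in day 6 cells (SD, n = 3), 5.94 ± 0.02 in neural stem cells (n = 2) and 9.91 ± 0.10 in astrocytes (n = 3). In astrocytes, C1ra had 6.97, 7.18 and 7.10 and was lowest on replicate 1, while C1s1 had 7.13, 6.49 and 6.84 and was highest there. Cd55, which dissolves complement convertases on the cell surface, rose by 2.50 ± 0.12, averaging 7.42 ± 0.29 in day 6 cells and 4.92 ± 0.08 in astrocytes (SD, n = 3 each). Cd59a, which blocks the membrane attack complex, was lower in neural stem cells than in astrocytes by a wide margin (-5.37 ± 0.11, adjusted p = 7.83e-11) and at -0.64 ± 0.10 in day 6 cells.

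Among cysteine cathepsins and their inhibitors, 5 of 9 were called lower and 0 higher in day 6 cells, against 10.1% and 6.75% of all genes (median -1.72). Ctsb, Lgmn and Ctsl, lysosomal proteases of many cell types, fell (-3.41 ± 0.12, -2.32 ± 0.09 and -1.80 ± 0.15), and so did Cst3, the secreted inhibitor cystatin C (-2.33 ± 0.11). Cst3 had 10.36, 10.41 and 10.68 in day 6 cells and 12.82, 12.71 and 12.92 in astrocytes. In the list of phagocytic and lipid-handling genes, 6 of 13 were called lower and 1 higher, against the same shares (median -0.53). The lipid carrier Apoe, abundant in astrocytes as well as in activated microglia, fell by 4.61 ± 0.12, with 8.33, 8.50 and 8.87 in day 6 cells and 13.17, 13.08 and 13.28 in astrocytes. Lgals3, galectin 3, rose by 1.09 ± 0.15. Itgax and Clec7a, which mark activated microglia more narrowly, stayed at or under the dim level on all arrays. For Apoe and Cst3 the highest astrocyte array was replicate 3, and for Ctss it was replicate 1.

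Across the 12 arrays, the profiles most like each of the 3 genes whose group means spanned at least 1 were ranked by Pearson's r among 6238 genes with the same span. These values mostly follow the group means and are a description. Genes picked by likeness share features of the profile, such as a high array, in part through the choice itself. Closest to Lyz2 were Tmem150a (r = 0.97), Ccdc3 (0.97), Oaf (0.96), Gsn (0.95) and Nbeal1 (0.95). Ccdc3 had 6.87 and 8.02 in astrocyte iPSCs and 9.87, 9.22 and 9.34 in astrocytes, and so shared both the split of the iPSC arrays and the high replicate 1. Closest to Laptm5 were Abcc4, Agpat2, Erbb3, Spint2 and Top3b, all with r = 0.97. Spint2, a protease inhibitor of epithelia, had 9.13, 8.79 and 8.87 in day 6 cells, against 7.48, 7.53 and 7.48 in astrocytes. Closest to Ctss were Rln1, Stox1, H60b and Cacna1d (r = 0.97 each) and Slc2a10 (0.96). All 5 were highest on astrocytes replicate 1, as with 8.52, 7.85 and 7.49 for Rln1 in astrocytes, and between 6.10 and 6.40 for Rln1 elsewhere.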

How the data were processed

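RNA from 12 samples in 5 groups was hybridised to Mouse Gene 1.0 ST arrays. The deposited values are probe set intensities on a linear scale (20.2 to 15436, array medians 97.9 to 104.9), made by the authors with RMA (background correction, normalization between arrays), per the submitters' processing notes; the sources used here name no version. Of 28853 probe sets, 21789 carry 1 gene symbol, 1621 several and 5443 none. Where several single-symbol probe sets named 1 gene, the brightest by mean was kept (19938 genes). limma 3.58.1 (R 4.3.3) was run on log2 values, estimating each group's mean with a spread shared by all 12 arrays (7 residual degrees of freedom), for 6 comparisons and with dim genes kept. The fit was tested on simulated data. The number of arrays limits the precision.

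The genes and lists were chosen with earlier results of these data known. Named were the 10 genes, list genes called in day 6 or neural stem cells against astrocytes (at most 4 each way) or highest on all astrocyte arrays, and the 5 closest profiles. Others named (Sall1, Plcg2, Inpp5d, Adam10, Dcn, Lyz1 and dim markers) were chosen after their values were seen. Alternatives covered the probe set choice, dim genes, normalization, offset, spread estimate, thresholds, a block for replicate numbers and the omission of single arrays. Tables were made with pandas 2.3.3 and numpy 2.4.6 under Python 3.11.15, and plots with matplotlib 3.10.9.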

Additional observations from a re-analysis of the deposited data

How the results depend on the processing

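Counts of the 10 genes called without the fold limit were 8 for day 6 cells, 7 for neural stem cells, 8 for astrocyte iPSCs and 7 for MEF iPSCs, each against astrocytes, and 2 for day 6 cells against neural stem cells. Neural stem cells against astrocytes gave 1 without dim genes, with cyclic loess and with arrays centred on the median, and 4 with 16 subtracted before log2; astrocyte iPSCs against astrocytes gave 5 with 16 subtracted; MEF iPSCs against astrocytes gave 1 without dim genes and with centring. Dropping dim genes removed 7 of the 10 genes, all but Lyz2, Laptm5 and C1qa, from the fit. Astrocyte iPSCs against day 6 cells gave 0 at an adjusted p under 0.01, with centring, with only the 2 groups, with trend and robust settings and with the replicate block, where the adjusted p of Lyz2 was 0.0727. Leaving out single arrays gave 2 to 3 calls for day 6 cells, 1 to 3 for neural stem cells, 2 to 5 for astrocyte iPSCs and 1 to 2 for MEF iPSCs against astrocytes, 1 to 1 for day 6 against neural stem cells and 0 to 1 for astrocyte iPSCs against day 6 cells. The lowest counts against astrocytes came without astrocytes replicate 1 in all 4 groups (2, 1, 2 and 1), and also without neural stem cell replicate 1 (1) and without astrocyte iPSC replicate 1 (2).

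Signs turned for uncalled differences. Centring moved the median of all genes in day 6 cells against astrocytes to 0.14, against 0.04 as deposited. With centring, Trem2 in day 6 cells against astrocytes was 0.0898 and Aif1 in neural stem cells against astrocytes 0.0476; with cyclic loess, Aif1 there was 0.0441, C1qb in day 6 against neural stem cells -0.11 and Ctss in astrocyte iPSCs against day 6 cells 0.00401. Without 1 array each, the ranges that crossed 0 were, against astrocytes, -0.17 to 0.13 for Aif1 in neural stem cells, -0.0589 to 0.0746 for Trem2 in day 6 cells and -0.12 to 0.12 for Trem2 in astrocyte iPSCs; in day 6 against neural stem cells, -0.0613 to 0.14 for C1qb, -0.0972 to 0.0308 for C1qc and -0.42 to 0.14 for Lyz2; and in astrocyte iPSCs against day 6 cells, -0.23 to 0.0804 for C1qb, -0.19 to 0.00537 for Csf1r, -0.15 to 0.11 for Ctss, -0.0347 to 0.79 for Laptm5 and -0.10 to 0.14 for Trem2. The causes were not tested.
Of 1278 alternative fold changes, 1202 kept direction and side of the threshold, 33 passed and 19 lost it and 24 turned sign. Same-numbered arrays deviated together in part (day 6 cells and astrocytes: r = 0.41, -0.01 and 0.22 for replicates 1 to 3). For MEF iPSCs and astrocytes r was 0.40 and 0.06 for replicates 1 and 2, and in the other comparisons it lay between -0.10 and 0.16. These correlations cannot decide whether the numbers pair samples, which the labels do not state, and the main fit used no pairing. With the replicate block the calls were 3, 3, 3, 2, 1 and 0 for the 4 groups against astrocytes, day 6 against neural stem cells and astrocyte iPSCs against day 6 cells, and over all genes 3364 against 3360 for day 6 cells and astrocytes. With the median of all genes as the dim level, C1qa was above it on 3 arrays and not 12, and C1qc, Aif1, Csf1r, Tyrobp and Trem2 on 0.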

Other observations

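Of 7 fibroblast genes, 4 (Ogn, Pdgfrb, Col1a1 and Col1a2) were called lower than in astrocytes both in day 6 cells, against 10.1% of all genes, and in neural stem cells, against 8.10%. The other 3 genes, Dcn, Lum and Col3a1, were not called in either. Ogn, a matrix proteoglycan, was at 5.04 ± 0.16 in day 6 cells (SD, n = 3), 4.97 ± 0.03 in neural stem cells (n = 2) and 12.25 ± 0.13 in astrocytes (n = 3). Astrocytes replicate 3, not replicate 1, was the highest of the astrocyte arrays for Dcn, at 6.88, 6.81 and 8.48 on replicates 1 to 3, and for Col3a1, a fibrillar collagen, at 7.35, 7.36 and 8.44. Ly86 was lowest on astrocytes replicate 3, at 6.62, 6.16 and 5.69 on replicates 1 to 3. In astrocyte iPSCs, Ctsk, a cathepsin of bone and connective tissue, had 6.07 and 7.37 and Cd53, a leukocyte tetraspanin, 6.11 and 6.72, and replicate 2 was the higher array for both, as it was for Lyz2.

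Among 6 endothelial genes, 1 was called higher in day 6 cells than in astrocytes, against 6.75% of all genes, and 0 lower, against 10.1%. The called gene was Tek, an angiopoietin receptor (1.34 ± 0.09, adjusted p = 1.30e-07), with 7.10, 6.85 and 6.78 in day 6 cells and 5.49, 5.56 and 5.66 in astrocytes. Without the fold limit 1 of 6, Kdr, was lower (-0.43 ± 0.10, adjusted p = 0.00347), against 25.1%. The astrocyte arrays of Kdr were all above the other arrays. Pecam1, an adhesion molecule of endothelium and of pluripotent cells, had 7.57 and 7.14 in astrocyte iPSCs, 7.28 and 7.05 in MEF iPSCs, and 5.76, 5.83 and 5.70 in astrocytes. Runx1, a blood-forming transcription factor on the myeloid list, had 8.35, 8.10 and 8.14 in day 6 cells, 6.29 and 6.17 in neural stem cells, and 8.21, 8.32 and 7.99 in astrocytes, and its log2 fold change in neural stem cells against astrocytes was -1.95 ± 0.10 (limma, adjusted p = 5.04e-08). These genes were picked after their values were seen.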
